A study of Homo sapiens with 23 samples.

Results

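RSPO2 and WNT8B are 2 of the 9497 genes measured in human thalamus organoids (ThOs). They were chosen by their deposited values at day 25, where both were lower in c-JUN knockout (KO) than in wild-type (WT) ThOs. That contrast is therefore given as a description with no test, as are the other comparisons that use the WT or KO libraries of day 25. RNA-seq was available for 12 libraries, made of 2 libraries for each of 6 groups, and each library held RNA from 3 pooled ThOs. The ThOs were grown from H1, an established human embryonic stem cell line, and were collected at day 25 or day 30 of a protocol that uses BMP7 and the MEK inhibitor PD325901 to pattern neural tissue towards thalamus. The KO ThOs came from H1 cells edited at c-JUN (gene symbol JUN) with CRISPR/Cas9. The third genotype, overexpression (OE), carried a c-JUN knockout together with a tet-on c-JUN construct switched on by doxycycline. The KO cells exist as clones KO#2 and KO#10, and the labels do not say from which clone a KO or OE library came. KO and OE libraries may therefore differ by clone.

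WNT8B encodes a secreted Wnt ligand that is made at the dorsal midline of the embryonic forebrain, including the cortical hem and parts of the diencephalon. RSPO2 encodes R-spondin 2, a secreted protein that binds LGR receptors and the membrane E3 ligases RNF43 and ZNRF3. These ligases remove Frizzled receptors from the cell surface, and an R-spondin bound to them leaves more receptor available to Wnt ligands. Canonical Wnt signalling then acts through beta-catenin and TCF/LEF factors, among them TCF7L2, a marker of the developing thalamus.

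The values were normalised by the authors to whole numbers, with a median of 106 in every library, and sequencing depth is unknown because no counts were analysed here. Replicates were closest in the WT and OE groups, where 1.75% to 4.45% of genes lay more than 2-fold apart, against 17.4% for KO at day 25 and 21.5% for its day 30 libraries. Replicate 2 of KO at day 30 stood apart, with a median Spearman's rho of 0.745 to the other 11 libraries, where each of the others had 0.83 to 0.934. JUN, the edited gene, had values of 139 and 153 in the WT libraries of day 25 and 353 and 196 in the libraries labelled KO. At day 30 JUN had values of 128 and 162 in WT and 222 and 248 in KO. The OE libraries had JUN values of 224 and 212 at day 25 and 362 and 202 at day 30. JUN was thus not lower in any library labelled KO than in WT. These values do not show the knockout at the level of RNA, and a gene-level value does not show whether a transcript still encodes protein. The labels, on which every direction given below rests, are not borne out by JUN RNA, and the reason was not tested. The labels do not say that the 2 libraries of a group came from separate differentiations, and p-values measure only the spread between these libraries.

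WNT8B (ENSG00000075290) lies on chromosome 10 at 100463009 to 100483744, plus strand, as the tables place it. The labels name the build hg19, whereas these positions are those of RefSeq on GRCh38.p14. At day 25 the WT libraries had WNT8B values of 169 and 334, the KO libraries 46 and 51, and the OE libraries 274 and 122. At day 30 the values were 44 and 65 in WT, 27 and 20 in KO, and 66 and 78 in OE. The KO libraries were lowest at each day, and no KO library overlapped a WT or OE library of the same day. At day 25 the low KO values are those by which WNT8B was chosen, and shares over all genes were not computed. At day 30, 17.4% of all genes had KO libraries wholly below WT, and 18.7% had OE libraries wholly above KO.

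The order of the WNT8B group means was WT day 25 (252 ± 117, SD, n = 2), OE day 25 (198 ± 108), OE day 30 (72.0 ± 8.49), WT day 30 (54.5 ± 14.9), KO day 25 (48.5 ± 3.54) and KO day 30 (23.5 ± 4.95). WT and OE at day 25 overlapped, and so did WT at day 30 and KO at day 25. The other neighbours in this order did not overlap. Day 25 WT and OE libraries therefore stood above every other library, while a KO library of day 25 had about the WNT8B value of a WT library of day 30.

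**Figure D1:**
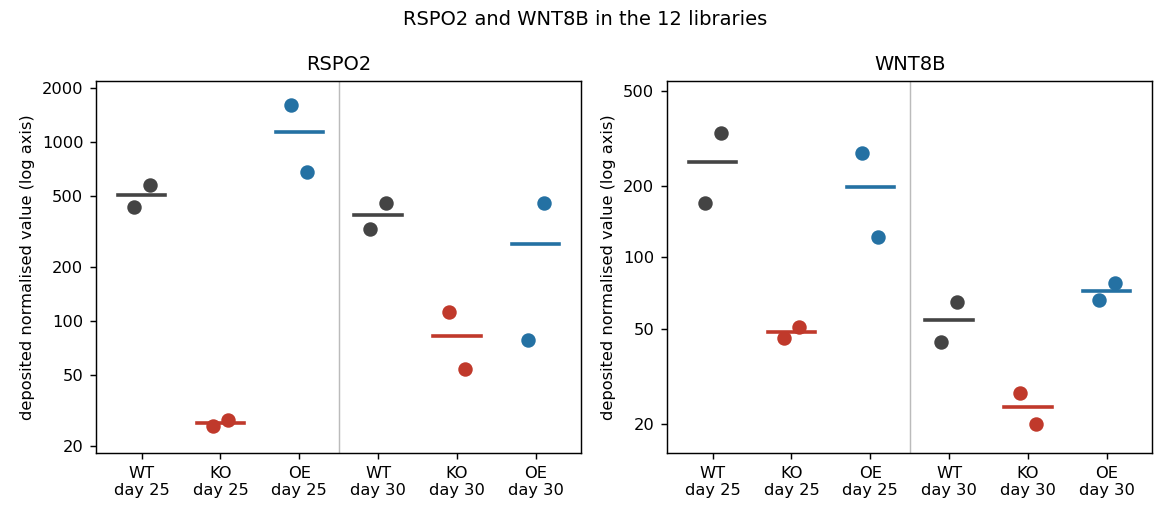
Deposited normalised value of RSPO2 (left) and WNT8B (right) on log axes, with a point for each of the 12 libraries and a bar for the mean of each group. Both genes were lowest in KO at each day by their means, RSPO2 in OE at day 30 spread from 78 to 460, and WNT8B was lower at day 30 than at day 25 in each genotype.

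The 250 bases before the RefSeq start of WNT8B (chr10:100462759-100463008, plus strand, GRCh38.p14) are shown because c-JUN is a DNA-binding factor and WNT8B differed between c-JUN genotypes. They were searched on both strands for the AP-1 motif TGANTCA, the CRE motif TGACGTCA, the TCF/LEF motif CTTTGAT, the CCAAT box CCAAT and the TATA box TATAAA. The capitals mark the only match, a CCAAT box on the minus strand.
WNT8B promoter: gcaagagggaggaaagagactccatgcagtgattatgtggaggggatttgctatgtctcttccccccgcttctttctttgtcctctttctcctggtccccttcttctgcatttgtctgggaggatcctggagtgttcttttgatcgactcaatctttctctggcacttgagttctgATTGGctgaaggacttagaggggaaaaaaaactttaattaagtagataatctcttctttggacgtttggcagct
The CCAAT box is found in 32.0% of 35116 RefSeq windows of this length, so its presence is common. The letters of the AP-1 motif are held by 6.57% of these windows, those of the CRE motif by 1.65%, those of the TCF/LEF motif by 2.26% and those of the TATA box by 10.7%. None of these 4 motifs was found in this window of WNT8B, which says nothing of more distant elements.

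In KO against WT at day 25, the contrast behind the choice, WNT8B was 4.83-fold lower in KO, a difference of -2.27 on the log2(value + 1) scale. This scale is used for all differences below, and it slightly understates changes of genes with low values. It ranked 6th from the lowest of 9497 differences. At day 30, in libraries that the choice did not use, WNT8B was 2.25-fold lower in KO than in WT, with a log2 difference of -1.17 (SE 0.43, 95% interval -2.11 to -0.23). The limma test gave an unadjusted p of 0.0195 and an adjusted p of 0.643 over all genes. WNT8B thus passed an unadjusted p of 0.05 with a 2-fold change and did not pass with an adjusted p of 0.05 and the same change. The methods of the study name both forms of rule. Its log2 difference ranked 108th from the lowest of 9497.

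WNT8B was 3.00-fold higher in OE than in KO at day 30, and all of its OE libraries lay above its KO libraries. The log2 difference was 1.58 (SE 0.43, 95% interval 0.64 to 2.53), with an unadjusted p of 0.0034 and an adjusted p of 0.32 by limma. At day 25, OE was 3.72-fold above KO with a log2 difference of 1.90, a contrast that shares the KO libraries of the choice and has no test. Against WT at day 30, WNT8B in OE differed by 0.42 (SE 0.43, 95% interval -0.52 to 1.36, unadjusted p = 0.352, adjusted p = 1 by limma). The interval includes a change of 2-fold upwards, so a difference of that size was not excluded with 2 libraries a group. The OE libraries (66 and 78) lay above those of WT (44 and 65). At day 25 the difference of OE from WT was -0.38, with overlapping libraries.

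Between day 25 and day 30, WNT8B was lower in every genotype and the libraries of the 2 days did not overlap in any. In OE, 19.4% of all genes had day 30 libraries wholly below those of day 25. The shares for WT and KO were not computed. In WT the log2 difference of day 30 from day 25 was -2.13, a 4.38-fold lower value and the most negative difference of all 9497 genes, and in KO it was -1.03. These 2 contrasts use libraries of the choice and were not tested. In OE the difference was -1.34 (SE 0.43, 95% interval -2.28 to -0.40), with an unadjusted p of 0.00952 and an adjusted p of 1 by limma. Without replicate 1 of OE at day 25, the library with the WNT8B value of 274, it was -0.76 with an unadjusted p of 0.14, and without replicate 1 of OE at day 30 the unadjusted p was 0.0516.

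RSPO2 (ENSG00000147655) is placed on chromosome 8 at 107899316 to 108083642, minus strand. At day 25 the WT libraries had RSPO2 values of 436 and 580, the KO libraries 26 and 28, and the OE libraries 1606 and 678. At day 30 the values were 328 and 455 in WT, 112 and 54 in KO, and 78 and 460 in OE. The KO libraries of day 25 were the lowest of the 12 and both OE libraries of that day were the highest. At day 30 the OE libraries were 5.90-fold apart, so that replicate 1 lay within the KO range and replicate 2 just above the WT range.

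By group means, RSPO2 was highest in OE at day 25 (1142 ± 656, SD, n = 2), followed by WT at day 25 (508 ± 102), WT at day 30 (391.5 ± 89.8), OE at day 30 (269 ± 270), KO at day 30 (83.0 ± 41.0) and KO at day 25 (27.0 ± 1.41). The 3 middle steps, from WT at day 25 to KO at day 30, each joined groups that overlapped. The steps at both ends did not.

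In KO against WT at day 25 RSPO2 was 18.0-fold lower, a log2 difference of -4.17 and the most negative of all genes, as a description of the values that chose it. Beside it, 2.84% of genes passed the unadjusted rule as lower in KO in that contrast. At day 30 RSPO2 was 4.91-fold lower in KO than in WT, and this log2 difference of -2.30 (SE 0.67, 95% interval -3.78 to -0.82) was again the most negative of 9497. The unadjusted p was 0.00567 and the adjusted p was 0.643 by limma. Without replicate 1 of KO at day 30 (RSPO2 value of 112), the difference was -2.82, with only replicate 2 left in that group. Without replicate 2 of KO at day 30, the library that stood apart and held the lower RSPO2 and WNT8B values of its group (54 and 20), it was -1.78 with an unadjusted p of 0.0542.

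Both members therefore passed the unadjusted rule as lower in KO at day 30, where 1.53% of all genes did. That background depended on 1 library, since the 279 genes called in either direction became 1799 without replicate 1 of KO at day 30 and 89 without replicate 2. Both also had KO libraries entirely below the WT libraries, as did 17.4% of genes. By adjusted p and 2-fold, no gene of 9497 passed at day 30 (0.0%), while 699 genes had an unadjusted p under 0.05. With library weights estimated by limma the unadjusted p was 0.0519 for RSPO2 and 0.0956 for WNT8B, so that neither passed. Without replicate 2 of WT at day 30 the WNT8B log2 difference was -0.89 with an unadjusted p of 0.129, and without replicate 2 of KO it was -0.96 with an unadjusted p of 0.0906.

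RSPO2 was 2.42-fold higher in OE than in KO at day 30, but the libraries overlapped. The log2 difference was 1.28 (SE 0.67, 95% interval -0.20 to 2.75), and it passed neither rule (unadjusted p = 0.0845, adjusted p = 0.489 by limma). The value depended on which OE library was used. Without replicate 1 of OE at day 30 the difference was 2.55 with an unadjusted p of 0.000611, and without replicate 2 it was 0.003 with an unadjusted p of 0.996. Leaving out a KO library gave 1.79 without replicate 1 and 0.76 without replicate 2. At day 25 the OE libraries were 37.3-fold above KO, a log2 difference of 5.22 and the most positive of all genes, in a contrast that shares the KO libraries of the choice. WNT8B was the only member called as higher in OE than in KO at day 30 by the unadjusted rule, which 2.71% of all genes passed in that direction, and the only member whose libraries did not overlap, as for 18.7% of genes. By adjusted p and 2-fold, 8 genes (0.0842%) passed and neither member was among them.

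Against WT at day 30, RSPO2 in OE had a log2 difference of -1.02 (SE 0.67, 95% interval -2.50 to 0.46, unadjusted p = 0.158, adjusted p = 1 by limma). The sign depended on 1 library: without replicate 1 of OE the difference was 0.25, and without replicate 2 it was -2.29 with an unadjusted p of 0.0014. At day 25 both OE libraries (1606 and 678) lay above both WT libraries (436 and 580), a difference of 1.05 that was not tested. The share of all genes with such libraries at day 25 was not computed. No member passed in OE against WT at day 30, where 0.969% of genes passed the unadjusted rule as lower, 0.474% passed it as higher, and 3 genes (0.0316%) passed with adjusted p. WNT8B was the 1 member with OE libraries wholly above WT, as were 21.0% of genes.

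From day 25 to day 30, the RSPO2 differences had different signs by genotype. In OE it was 5.48-fold lower at day 30, a log2 difference of -2.45 (SE 0.67, 95% interval -3.93 to -0.97) that was the most negative of all genes, with an unadjusted p of 0.00375 and an adjusted p of 1 by limma. Without replicate 1 of OE at day 30 it was -1.18, and without replicate 2 it was -3.73. In KO it was 2.82-fold higher at day 30, a difference of 1.49 with both day 30 libraries (112 and 54) above those of day 25 (26 and 28), and in WT it differed by -0.38 with overlapping libraries. The contrasts in KO and WT use libraries of the choice and were not tested, and shares of all genes without overlap were not computed for them. Both RSPO2 and WNT8B passed the unadjusted rule as lower in OE at day 30 than at day 25, where 0.379% of genes did, and both had libraries that did not overlap, as did 19.4% of genes. No gene passed with adjusted p and 2-fold (0.0%), while 180 had an unadjusted p under 0.05.

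**Figure D2:**
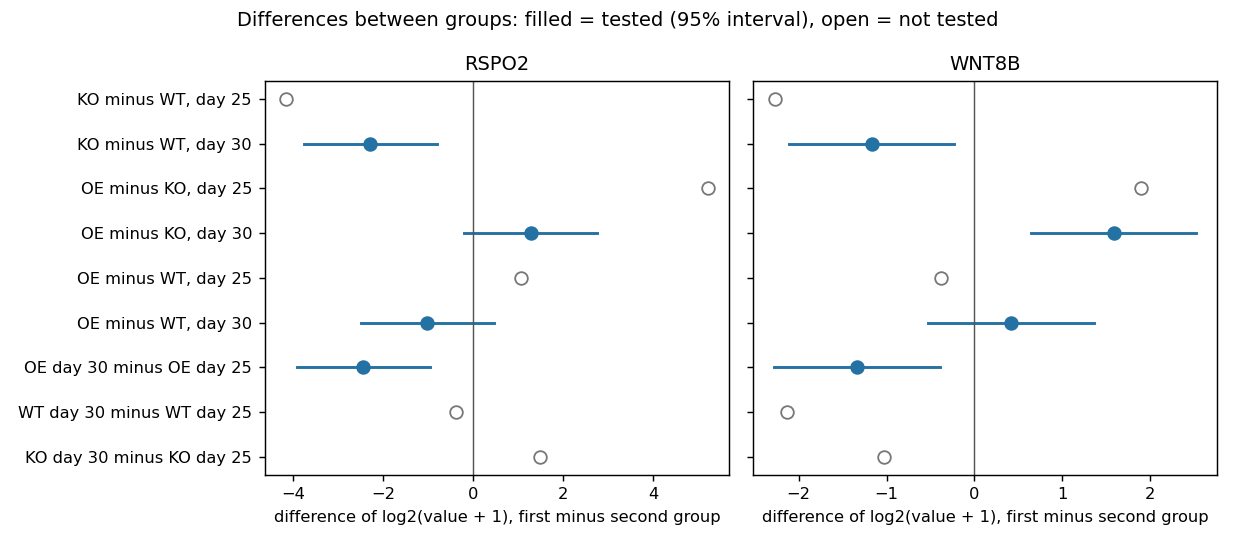
Differences of log2(value + 1), first group minus second, for RSPO2 (left) and WNT8B (right) in 9 comparisons. Filled points are tested and carry their 95% intervals, and open points use the WT or KO libraries of day 25 and have no test. The intervals of KO minus WT at day 30 lie below 0 for both genes, whereas that of OE minus KO at day 30 lies above 0 for WNT8B and spans 0 for RSPO2.

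The 2 genes were compared with each other over the 12 libraries as a description. Pearson's r of their log2 values was 0.726 and Spearman's rho 0.748, with groups and days as shared sources of variation. The 12 libraries include the WT and KO libraries of day 25, by which both genes were chosen as lower in KO. In the 6 libraries of day 30, which the choice did not use, Pearson's r was 0.671 and Spearman's rho 0.657. Pearson's r was 0.805 without both KO libraries of day 25, which were farthest from the median of RSPO2. It was 0.605 over the 12 libraries after the mean of each group was removed. WNT8B ranked 298th of 9496 genes in its likeness to RSPO2, and RSPO2 ranked 170th in its likeness to WNT8B, so neither was the closest match of the other. The closest pattern to RSPO2 was that of ANKMY2 (r = 0.932 over 12 libraries), followed by SOX11 (0.926), TM2D3 (0.919), FAM124A (0.917) and SEPHS1 (0.901). SOX11, a transcription factor of immature neurons, spanned a far smaller range than RSPO2, from 542 to 925. The closest to WNT8B were VPS33A (0.917), ZNF426 (0.906), UTRN (0.885), CCDC85C (0.884) and MAF (0.883).

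**Figure D3:**
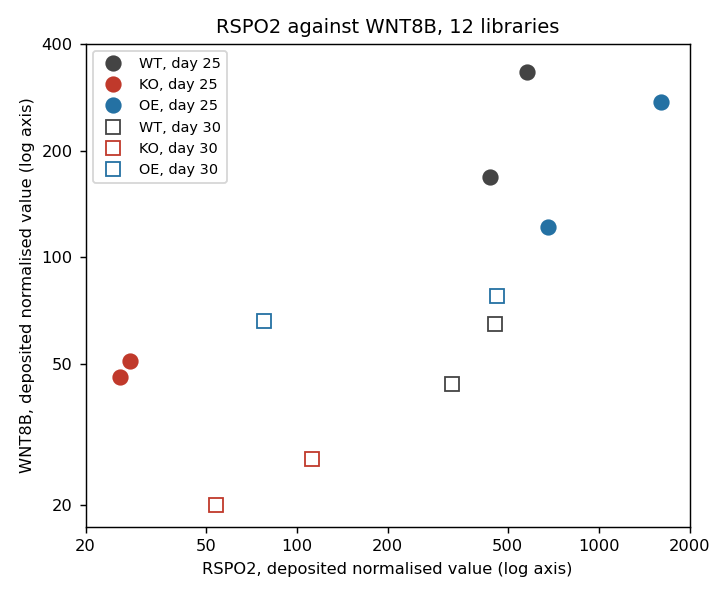
RSPO2 (x axis) against WNT8B (y axis), deposited normalised values on log axes, with a point for each of the 12 libraries (filled for day 25, open for day 30). The KO libraries of day 25 lie at the left with WNT8B at 46 and 51, and those of day 30 lie at the bottom with WNT8B at 20 and 27, so the lowest RSPO2 and the lowest WNT8B values came from different libraries.

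Of the 8 nearest genes, 2 on each side of each member, SCD alone passed the unadjusted rule in any of 4 comparisons. For RSPO2, the nearest analysed genes OXR1 and ANGPT1 on the side of lower coordinates and EIF3E and EMC2 on the other passed the unadjusted rule in none of KO against WT or OE against KO at either day. ANGPT1, an angiopoietin, had log2 differences of 0.98 and 0.92 in KO against WT at days 25 and 30, opposite in sign to RSPO2. For WNT8B, SEC31B lies 2.90 kb away on the opposite strand, with differences of -0.76 and 0.44 in KO against WT at days 25 and 30, and passed in none. SCD, the stearoyl-CoA desaturase gene 98.2 kb on the other side, passed the unadjusted rule at day 25 as lower in KO (-1.10) and higher in OE than in KO (1.36), and at day 30 passed in neither comparison. BLOC1S2 and NDUFB8 passed in none.

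Among the other Wnt ligands, 8 of 18 were analysed. WNT7B was the only one of them that passed the unadjusted rule as lower in KO at day 25, with values of 114 and 228 in WT, 70 and 44 in KO and 223 and 262 in OE. Its log2 differences were -1.52 for KO against WT and 2.10 for OE against KO, with adjusted p of 0.203 and 0.0632 by limma. At day 30 it did not pass in either comparison, with a KO difference of -0.35. WNT4 and WNT5A had negative KO differences at both days that did not pass, between -0.94 and -0.44, and WNT3 had -0.23 and -0.43.

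WNT1, a ligand of the roof plate and midbrain, had differences of the opposite sign to WNT8B. Its values at day 30 were 38 and 36 in WT, 139 and 262 in KO and 43 and 18 in OE, so that KO stood above both other genotypes. It passed the unadjusted rule as higher in KO at day 30 (2.34, adjusted p = 0.643 by limma) and as lower in OE than in KO at both days (-2.23 at day 25 and -2.73 at day 30, adjusted p of 0.0827 and 0.117). WNT9A passed as higher in KO at day 25 (1.19) and lower in OE than in KO at that day (-1.94), and WNT10B and WNT2B passed as lower in OE than in KO at day 25 (-2.49 and -2.05). WNT2B and WNT4 passed as lower in OE than in KO at day 30 (-1.87 and -1.04).

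The other 2 R-spondins analysed had positive KO differences at day 30. RSPO3 had values of 168 and 112 in WT, 362 and 532 in KO and 176 and 140 in OE at day 30, and passed the unadjusted rule as higher in KO (1.67, adjusted p = 0.643 by limma) and lower in OE than in KO (-1.48, adjusted p = 0.261). At day 25 its KO difference was 0.38 and did not pass. RSPO1 differed by 0.84 in KO against WT at day 30, under 2-fold, with values of 93 and 88 in WT and 165 and 160 in KO. RSPO2 and RSPO3 were thus on opposite sides in KO at day 30, in each case with no overlap between the KO and WT libraries. At that day 17.4% of all genes had KO libraries wholly below WT, and the share wholly above was not computed.

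On the receiving side, LGR4, a receptor for R-spondins, had values of 106 and 122 in WT, 390 and 173 in KO and 76 and 87 in OE at day 25. At day 30 it had 127 and 103 in WT, 373 and 368 in KO and 152 and 61 in OE. LGR4 passed the unadjusted rule as higher in KO than in WT and as lower in OE than in KO at both days, with KO differences of 1.19 and 1.69 and OE differences of -1.66 and -1.93. None of these passed with adjusted p, the lowest being 0.0907 by limma. ZNRF3, the E3 ligase that R-spondins bind, passed in none, with a KO difference of -0.64 at day 25 and 0.40 at day 30. WLS, which carries Wnt ligands to the cell surface, passed only as lower in OE than in KO at day 30 (-1.05, adjusted p = 0.0718).

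**Figure D4:**
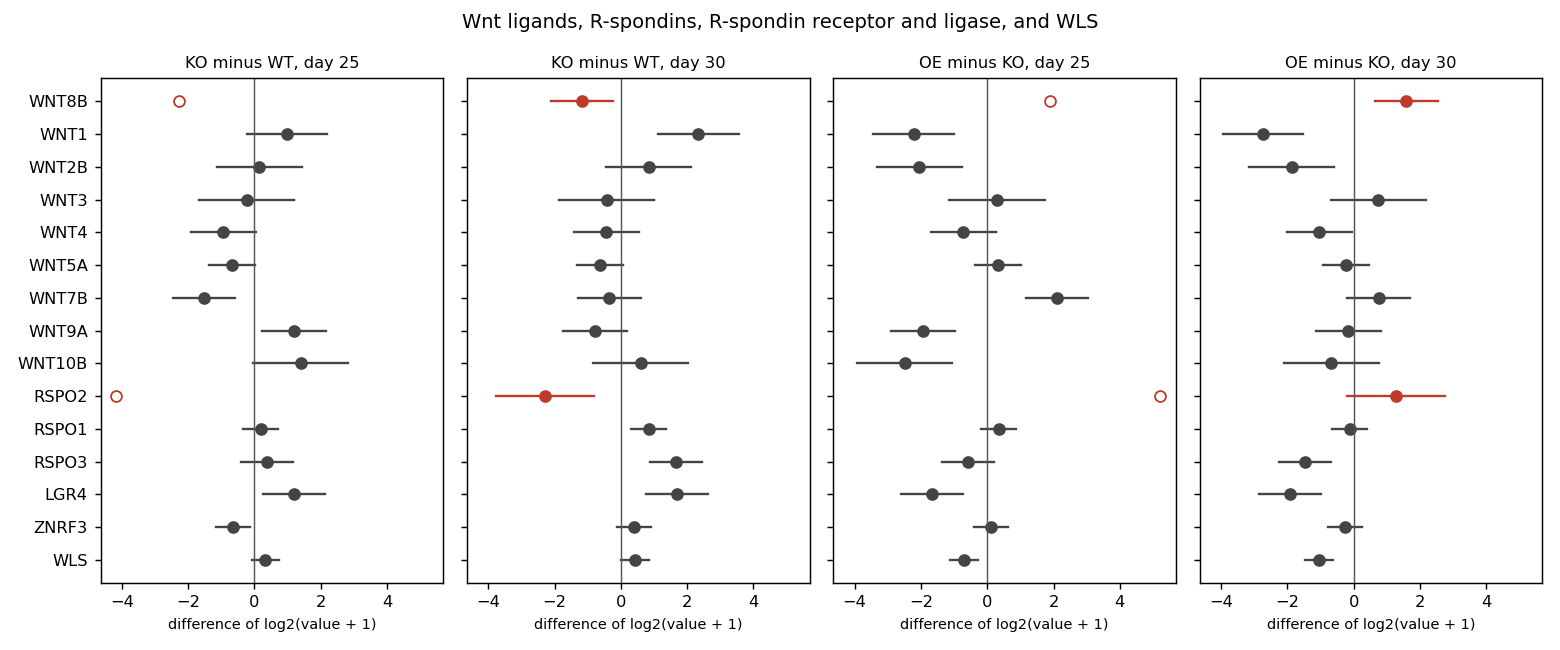
Differences of log2(value + 1) with 95% intervals for the analysed Wnt ligands, R-spondins, LGR4, ZNRF3 and WLS in 4 comparisons, with RSPO2 and WNT8B in red and open points where no test was made. WNT8B and RSPO2 lie left of 0 in KO minus WT at both days, whereas WNT1, RSPO3 and LGR4 lie right of 0, and the positions swap sides in OE minus KO.

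Over the whole pathway list of ligands, agonists, receptors, inhibitors, intracellular components and targets, 67 genes besides the members were analysed of 99 listed. In KO against WT at day 25, 2 passed the unadjusted rule as higher (WNT9A and LGR4) and 2 as lower (WNT7B and DRAXIN). These were 5.97% of the list in either direction. Over all genes, 504 of 9497 passed in either direction, 2.46% as higher and 2.84% as lower, a joint share near that of the list. At day 30, 3 were higher in KO (WNT1, RSPO3 and LGR4) and 2 lower (FZD1 and DRAXIN), or 7.46% in either direction. Over all genes, 279 of 9497 passed in either direction at day 30, 1.41% as higher and 1.53% as lower. The medians of the list were -0.14 at day 25 and -0.0072 at day 30, beside -0.02 and -0.0034 over all genes. DRAXIN, a secreted Wnt antagonist and axon guidance protein, was the 1 gene of these 67 that passed as lower in KO at both days (-1.31 and -1.07).

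In OE against KO at day 25, 5 genes of the list passed the unadjusted rule as higher (WNT7B, LRP5, DRAXIN, BCL9 and TLE3) and 11 as lower, beside 4.25% and 4.32% of all genes. At day 30, DRAXIN passed as higher and 9 genes as lower, beside 2.71% and 2.67% of all genes. The medians of the list were -0.05 and -0.08, beside 0.03 and -0.01 over all genes. WNT8B at day 30 was thus on the side of DRAXIN, and opposite to the 9 genes WNT1, WNT2B, WNT4, RSPO3, WLS, LGR4, FZD6, ROR1 and APCDD1. Among the 9 analysed of 14 feedback targets of the pathway, none passed in KO against WT at either day. NKD1, APCDD1 and SP5 passed as lower in OE than in KO at day 25, where RSPO2 was highest, and APCDD1 also at day 30. No gene of the list passed with adjusted p in these 4 comparisons with all libraries. Without replicate 1 of KO at day 30, 9 passed in KO against WT and 12 in OE against KO at that day, and 1 passed in OE against KO at day 30 with a single OE library of day 25 left out. In OE against KO at day 25, 8 passed with either KO library of day 30 left out on its own, 5 without replicate 1 of KO at day 25 and 2 without its replicate 2.

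Marker genes of the regions that make Wnt ligands and of other cell types were summed in the same libraries. Of 16 roof plate and cortical hem genes other than the members, 13 were analysed. Their summed level was 4061 to 4560 in WT, 7314 to 13567 in KO and 3521 to 4498 in OE at day 30, and 6 of them, LMX1A, LMX1B, MSX1, WNT1, RSPO3 and ZIC1, passed the unadjusted rule as higher in KO, beside 1.41% of all genes. At day 25 LMX1B and MSX1 passed as higher in KO and ZIC2 as lower, beside 2.46% and 2.84% of all genes, and the sums were 4900 to 5827 in WT, 5719 to 8353 in KO and 3440 to 3570 in OE. In OE against KO at day 25, LMX1B, MSX1, GDF7, WNT1 and WNT2B passed as lower, 1 of them with adjusted p, beside 4.32% of all genes. At day 30, LMX1A, LMX1B, WNT1, WNT2B, RSPO3 and ZIC1 passed as lower in OE than in KO, beside 2.67%. None passed as higher in OE. RSPO2 and WNT8B, which belong to the same list by their known sites of expression, were thus lower than in WT at day 30 in the KO libraries, in which its other genes summed highest.

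Neural progenitor markers, of which 7 of 10 were analysed, summed to 7412 to 13574 in WT, 3891 to 6140 in KO and 6377 to 8408 in OE at day 25. NES, HES1 and PTPRZ1 passed as lower in KO there, beside 2.84% of all genes. No progenitor marker passed as lower in KO at day 30, beside 1.53% of all genes, when the sums were 6506 to 7593 in WT and 5572 to 7375 in KO. In OE against KO, SOX2, NES, HES1 and PTPRZ1 passed as higher at day 25 and SOX2 at day 30, beside 4.25% and 2.71% of all genes. Choroid plexus markers, 7 of 12 analysed, summed to 1541 to 5961 in KO and 2289 to 3203 in WT at day 25. Mesenchyme and neural crest markers, 4 of 14 analysed, summed to 579 to 1162 in KO and 476 to 547 in WT at that day. SLC4A5 of the choroid plexus list and COL1A2 of the mesenchyme list passed as higher in KO at day 25, beside 2.46% of all genes. In OE against KO at day 25, FOLR1, SLC4A5 and COL1A2 passed as lower, beside 4.32%. Thalamus markers, 6 of 12 analysed and including TCF7L2, passed in none of the 4 comparisons. Neuronal markers, 9 of 10 analysed, summed to 6996 to 8223 in WT and 8158 to 10737 in KO at day 25, with a median log2 difference of 0.63 beside -0.02 over all genes and none past the unadjusted rule. At day 30 they summed to 9613 to 9821 in WT and 9922 to 9956 in KO, and ELAVL3 passed as lower in KO, beside 1.53% of all genes. In OE against KO, GAP43 passed as lower at day 25, also with adjusted p, and ELAVL3 as higher at day 30. None of the 10 telencephalic and 11 midbrain and hindbrain markers was among the 9497 genes with values here, so none was analysed. In bulk RNA, fewer cells that make RSPO2 or WNT8B cannot be told apart from less RNA in each cell, and the part of these marker differences in the results was not tested.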

How the data were processed

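The deposited RNA-seq tables hold a whole-number normalised score per gene, made by the authors. The labels name bcl2fastq, Bowtie2, RSEM and hg19 with no roles, and the normalisation is not given in the sources used here. All libraries held the same 9497 genes, with values from 11 to 9910 and near-identical distributions, so genes with low values were not analysed here and ratios between libraries depend on that scaling. Because the values are not counts, log2(value + 1) was fitted with limma 3.58.1 in R 4.3.3, using group means over all 12 libraries, moderation with an intensity trend and Benjamini-Hochberg adjustment over all genes (6 residual degrees of freedom). A filter of at least 1 in at least 2 libraries removed 0 genes. The unadjusted rule is p under 0.05 with a 2-fold change, and the adjusted rule uses adjusted p. The fit was tested on simulated data.

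RSPO2 and WNT8B, the Wnt pathway list and the marker lists were chosen with earlier results of these data known. Named besides them were JUN, the other ligands, R-spondins and their receptors, list genes past the unadjusted rule, the 5 genes most like each member by Pearson's r, and the 2 nearest genes on each side. The promoter window is RefSeq's, found for 1 of the 2 members. The 9 ATAC-seq and 2 CUT&Tag samples were not analysed here. Alternatives were pseudocounts of 0.1 and 5, no filter, a mean of at least 50, quantile normalisation, median centring, a replicate block, the compared libraries alone, library weights, no trend, and each library left out.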

Additional observations from a re-analysis of the deposited data

Results flagged for a closer look

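RSPO2 was singled out because its libraries moved in opposite ways in 2 genotypes between the days. In KO, both libraries of day 30 (112 and 54) lay above both of day 25 (26 and 28), a log2 difference of 1.49. In OE, both libraries of day 30 (78 and 460) lay below both of day 25 (1606 and 678), a log2 difference of -2.45. The difference between these changes was not tested, since the KO libraries of day 25 are among those by which RSPO2 was chosen.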

How the results depend on the processing

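For the 8 tested differences of RSPO2 and WNT8B, only pseudocounts, quantile normalisation and leaving out a compared library moved the value. The rest of the 22 alternatives left it as it was and could not change a sign. Among those that moved it no sign changed, with 1 exception, RSPO2 in OE against WT at day 30. That difference was -1.02 and became 0.25 without replicate 1 of OE at day 30. With 1 library left out at a time its range was -2.29 to 0.25. The range was -2.82 to -1.78 for RSPO2 in KO against WT at day 30. For WNT8B in OE against KO at day 30 it was 1.38 to 1.79. With both libraries of each compared group kept, adjusted p by limma stayed above 0.05 for these 2 differences. The 4 Wnt pathway genes called in KO against WT at day 25 became 2 with library weights, and 3 to 11 with a library left out, 11 without replicate 1 of KO at day 25. The 5 called at day 30 ranged from 3 (without replicate 2 of KO at day 30) to 13 (without replicate 1). By adjusted p the pathway list went from 0 to 9 called in KO against WT and 12 in OE against KO at day 30 without replicate 1 of KO at day 30. The 10 called in OE against KO at day 30 ranged from 4 to 18 without the same 2 libraries, and the 16 called at day 25 ranged from 14 to 19 over all alternatives. Over all genes, the calls by adjusted p in KO against WT at day 30 went from 0 to 1078 without replicate 1 of KO, and those in OE against KO at day 30 from 8 to 1441. A lone remaining library was assumed to vary like the other groups, and the cause of these changes was not tested. With the replicate block, RSPO2 in KO against WT at day 30 stayed at -2.30 (adjusted p = 0.652 by limma) and the Wnt pathway counts were 4, 5, 16 and 10, the same as without it. Same-numbered libraries did not deviate together in most pairs of groups (r of -0.214 to 0.262 over 15 pairs, above 0.1 in 1). These correlations cannot show whether such libraries shared a batch or a differentiation. Depth is unknown, and the number of libraries limits the precision.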
